A study of Mus musculus with 4 samples.

Results

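The mRNA stretches described here are those whose sequence is written in very uridine-rich array probes. A probe was taken when its annotation named a RefSeq mRNA, when at least 45% of its bases were T, and when Feature Extraction, the scanner software, marked its signal as well above background on 2 or more arrays. Of 55681 probes on the array, 26585 named a RefSeq mRNA and 751 of those reached the T share. The filter on signal dropped 74 of the 751, of which 59 were well above background on 0 arrays and 15 on 1 array, and 677 were kept. They belong to 670 transcripts of 669 genes, and 642 of them were well above background on all 4 arrays. The remaining 26 and 9 were so on 3 and 2 arrays. A kept probe is 60 bases long, written in the direction of the mRNA, so a T in the probe stands for a U in the transcript. Of the 547 kept probes whose gene has a known strand, 545 lay on that strand, and 0 kept probes overlapped each other.

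The experiment was a ribonucleoprotein immunoprecipitation from mouse brain. Cortex and hippocampus of male C57BL/6 mice, 8 weeks of age, were lysed, and the lysate was left for 3 h with beads that carried CPEB3 IgG or control IgG. C57BL/6 is a common inbred laboratory strain, and no allele or drug is named for any group. The precipitated RNA was amplified, labelled with Cy3 and read on 1-colour Agilent arrays, with 2 arrays of CPEB3 IgG and 2 of control IgG. Nothing in the labels ties the replicates to different animals or lysates. The p-values therefore speak for the spread between these samples alone, which may be technical. Both control arrays sat in row 1 of the slide and both CPEB3 IgG arrays in row 2, so row and antibody cannot be told apart. Arrays of the same replicate number sat in the same column of the slide.

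CPEB3 belongs to the cytoplasmic polyadenylation element binding proteins, which sit on the 3′ untranslated region of mRNAs and set the length of the poly(A) tail and the rate of translation. The founding element of the family is a short U-run followed by A and U, and CPEB3 is known to bind U-rich loops as well. In neurons the protein is known for holding synaptic mRNAs back from translation until a synapse is stimulated.

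Probes with a very high T share show what the extreme of this class looks like. For each of these, the first 30-base window with the most T is printed 5′ to 3′, with mm9 coordinates and with capitals for runs of 4 or more T. The capitals mark U-runs and nothing else.
Ulk3, chr5:44819058-44819087, plus strand: tttcTTTTTTTctttctttctttctttctt
Nuak2, chr1:134229555-134229584, plus strand: TTTTTTggTTTTTgtttgtttgtttgTTTT
Sp3, chr2:72774934-72774963, minus strand: taTTTTcTTTTTaTTTTTTaattattgttt
Vstm2b, chr7:48185207-48185236, plus strand: tttacaTTTTctttgggggaTTTTTcTTTT
Ulk3 and Nuak2 are runs of T broken by G or C with little or no A, whereas Sp3 is a run of T broken by A and holds TTTTAT and TTTTAAT.

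Windows of 9 probes with a large excess in the CPEB3 precipitate follow, to show how A and the elements searched for sit among the U-runs. They were picked after the values were seen. Another 7 of the probes chosen for naming, with differences in the same range (Crocc, Fbxl12, Fnip2, Efna1, Ackr3, Pkdcc and Tmem39b) are not shown. In none of these 7 does the window hold TTTTAT or TTTTAAT, against 5 of the 9 shown, and the median A share of the probes is 18.3% against 23.3%, so the set leans toward A and the elements.
Epha5, chr5:84483850-84483879, minus strand: tttgtgctttcagtttgtgtacatgTTTTT
Cdh4, chr2:179633844-179633873, plus strand: taTTTTgtattgtcgtttgtatcaTTTTgt
Tnfaip6, chr2:51912143-51912172, plus strand: atttatattaggatttaaggttgTTTTcat
Mex3d at position 3197, chr10:79843125-79843154, minus strand: agTTTTaTTTTTggacttgaaagccttctt
Mex3d at position 2946, chr10:79843363-79843392, minus strand: ttcTTTTTTgttgTTTTTTaaaaaggTTTT
Nphp4, chr4:151937201-151937230, plus strand: tataTTTTaatttgccatgtaTTTTattat
Myt1, chr2:181562028-181562057, plus strand: TTTTTTatataTTTTgttatttattcTTTT
Neurod1, chr2:79293651-79293680, minus strand: tttgttgtgaTTTTgtacagaaTTTTTaat
Nfkb1, chr3:135247649-135247678, minus strand: atgctatttacTTTTTTaTTTTacTTTTat
Nphp4 carries TTTTAAT and TTTTAT in this window. The windows of Myt1, Nfkb1 and Mex3d at position 3197 hold TTTTAT, and that of Neurod1 holds TTTTAAT.

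The last set comes from probes that were lower in the CPEB3 precipitate, printed because they share the T content without the excess.
Vcp, chr4:42992950-42992979, minus strand: tttatatagaaagtaggttgaTTTTTattt
Prkar1a, chr11:109529013-109529042, plus strand: ttcttgtctctttatactaaaagttgcttt
Pttg1, chr11:43233809-43233838, minus strand: atatttaaacttcttacttctttgtagttt
Uchl3, chr14:102095278-102095307, plus strand: TTTTTaataTTTTcattaacttgactaatt
Rtf2, chr2:172266114-172266143, plus strand: ttctcgtctttgctaaggcttctggTTTTT
The Vcp window holds TTTTAT and that of Uchl3 holds TTTTAAT.

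Uridine-rich stretches were, as a group, more abundant with CPEB3 IgG than with control IgG. A level is the log2 signal minus that of the array's 75th percentile, and a difference is the CPEB3 IgG mean minus the control mean. Both describe shares of the precipitated RNA. The median level of the 677 probes was 1.45 and 1.45 on the CPEB3 IgG arrays and 0.43 and 0.49 on the control arrays. Both CPEB3 IgG arrays were therefore above both control arrays. The other 21426 RefSeq probes that were fitted had medians of -0.31 and -0.31 against -0.32 and -0.33, levels that nearly coincide. The median difference of the uridine-rich probes was 0.64, with quartiles of -0.04 and 1.47 and a range from -2.87 to 3.77, and 492 of the 677 (72.7%) were above 0. The median was -0.08 over the other RefSeq probes and -0.19 over all 40616 probes fitted.

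With limma and Benjamini-Hochberg adjustment over all 40616 probes, 305 of the 677 uridine-rich probes were higher with CPEB3 IgG at an adjusted p under 0.05, 30 were lower and 342 were not called. The share called higher was 45.1%, against 15.8% of all probes and 22.6% of all RefSeq probes. The share called lower was 4.43%, against 18.9% of all probes and 20.1% of all RefSeq probes. Both CPEB3 IgG arrays lay above both control arrays at 424 uridine-rich probes (62.6%), against 28.6% of all probes and 37.3% of all RefSeq probes. They lay below both at 102 (15.1%), against 42.7% and 39.8%. At least a 2-fold excess was called at 248 of the 677, against 11.7% of all probes and 17.0% of all RefSeq probes. At least a 4-fold excess was called at 83, against 3.02% and 4.6%. A deficit of at least 2-fold was called at 14, against 12.8% and 13.6%. The median fold was 2.89 among the probes called higher and 1.94 among those called lower. The share called higher was 22.5% without CPEB3 IgG replicate 1 and 26.9% without CPEB3 IgG replicate 2. The share called lower was 0.886% and 1.03% in these fits and 1.92% without control IgG replicate 1.

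The difference rose with the T share over the whole range of RefSeq probes and did not start at the 45% line. Probes with under 15% T had a median difference of -0.68 (n = 491), and 40.7% of them were called lower. The median was -0.19 at 25 to 30% T (n = 5082), 0.09 at 30 to 35% (n = 4944), 0.25 at 35 to 40% (n = 3614) and 0.46 at 40 to 45% (n = 1725). Within the uridine-rich class it was 0.59 at 45 to 50% (n = 530) and 0.78 from 50% upward (n = 147). In the last band 70 of the 147 were called higher and 1 was called lower, which was Ran. Over the 9 bands the median rose at all 8 steps, and it did so in every one of the 13 settings in which the bands were recomputed. Among the RefSeq probes under 45% T, the T share had a rho of 0.315 with the difference (n = 21426). Its rho was 0.190 with the difference between the CPEB3 IgG replicates (1 minus 2) and -0.020 with that between the control replicates. On the border itself, the 275 probes with 27 T had a median of 0.63 with 123 called higher and 14 lower, and the 384 probes just outside with 26 T had 0.48 with 164 higher and 23 lower. Among the 677 the T share itself hardly tracked the difference (Spearman rho 0.036, Pearson r 0.047, n = 677 probes). Its rho with the difference between the CPEB3 IgG replicates (1 minus 2) was larger in size, -0.173, and that between the control replicates was -0.087. The T share has a narrow range among the 677, and the points share 4 arrays. These correlations and those below are therefore descriptions.

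Among the uridine-rich probes, those with more A in the rest of the sequence had the larger excess. Probes with under 20% A had a median difference of 0.49 (n = 448, 169 called higher and 21 lower). With 20 to 25% A it was 1.01 (n = 165, 97 higher and 7 lower), with 25 to 30% it was 0.81 (n = 35, 18 higher and 0 lower) and with 30% or more it was 1.31 (n = 29, 21 higher and 2 lower). The difference had a Spearman rho of 0.239 and a Pearson r of 0.250 with the A share (n = 677 probes). Each of the 4 pairings of a CPEB3 IgG array with a control array gave a rho between 0.198 and 0.235. The difference between the 2 CPEB3 IgG arrays had a rho of 0.042 with the A share, and that between the 2 control arrays 0.058. Pooled over all T shares, the other RefSeq probes had a rho of -0.037 (n = 21426). Their T share, which had a rho of 0.315 with the difference, was not held fixed in that value. Over all RefSeq probes with at least 40% T, which include the 677, the rho with the A share was 0.192 (n = 2402). Whether the other probes near the class share the trend was therefore not settled by the pooled value. Within the 677, the level itself fell with the A share on each array. The fall was larger on the control arrays (rho -0.162 and -0.184) than on the CPEB3 IgG arrays (-0.077 and -0.085).

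The GC share ran the opposite way, which the choice of probes partly fixes, since A and GC fill what T leaves and had a rho of -0.766 with each other. Most uridine-rich probes had at least 30% GC (589 of 677, median difference 0.57), and the median GC share was 35%. The median difference was 0.85 at 25 to 30% GC (n = 42), 1.31 at 20 to 25% (n = 37) and 1.75 under 20% (n = 9). In the 20 to 25% bin, 26 of 37 were called higher and 0 lower. Under 20%, 8 of 9 were called higher, and the ninth, Uchl3, was called lower. The rho of the difference with the GC share was -0.269 (Pearson r -0.292), from -0.234 to -0.266 over the 4 pairings of arrays, and 0.066 and -0.015 between replicates. The other RefSeq probes had a rho of -0.303. Among these the GC share also went with the difference between replicates, with a rho of -0.238 between the CPEB3 IgG arrays and -0.135 between the control arrays. G and C taken apart had a rho of -0.107 and -0.124.

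Position on the transcript went with the difference as well. The position is the number of the probe's first base counted from the 5′ end of the RefSeq mRNA, as the files give it, and the distance to the 3′ end was not analysed here. Uridine-rich probes before position 1000 had a median difference of 0.11 (n = 85, 17 called higher and 8 lower). The median was 0.36 from 1000 to 2000 (n = 163, 63 higher and 11 lower), 0.56 from 2000 to 3000 (n = 154, 57 higher and 10 lower) and 1.00 from 3000 to 5000 (n = 179, 107 higher and 1 lower). From position 5000 on it was 1.06 (n = 96), with 61 called higher and 0 lower. The 1 probe called lower between 3000 and 5000 was that of Vcp. The other RefSeq probes followed the same order at a lower height, with medians of -0.49, -0.23, 0.08, 0.29 and 0.58 in the 5 bins. Uridine-rich probes had the higher median in all 5 bins, in the main setting and in the 12 other settings recomputed. The rho with the position was 0.298 (Pearson r 0.249) among the uridine-rich probes and 0.356 (0.310) among the others. After the median of all RefSeq probes of the same bin was subtracted, the uridine-rich probes remained 0.60 above the others in median, against 0.73 before, and the rho with the A share was 0.235.

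Split by position and GC share together, the probes under 30% GC had the higher median in each of the 5 bins of position. Before position 1000 the median was 0.78 for probes under 30% GC (n = 9) and 0.06 for the rest (n = 76). From 1000 to 2000 it was 0.58 (n = 20, 8 called higher and 1 lower) and 0.34 (n = 143, 55 higher and 10 lower), and from 2000 to 3000 it was 0.85 (n = 17, 9 higher and 0 lower) and 0.52 (n = 137, 48 higher and 10 lower). From position 3000 to 5000 it was 1.49 (n = 22, 18 called higher and 0 lower) and 0.96 (n = 157, 89 higher and 1 lower). From position 5000 on it was 1.86 (n = 20, 17 higher and 0 lower) and 0.99 (n = 76, 44 higher and 0 lower). With 30% GC or more the median rose at each step of position. Under 30% GC it was lower from 1000 to 2000 than before 1000, in bins of 20 and 9 probes.

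Known elements were searched as letters in the probes as written, on the strand of the mRNA unless the reverse complement is named, and a match is not a bound site. The choice of probes by T share alone raises the share that holds T-rich motifs and lowers that of A-rich ones. The shares of motifs in this and the next paragraphs therefore describe the class and do not measure enrichment. TTTTAT, the DNA form of a cytoplasmic polyadenylation element, was in 130 uridine-rich probes (19.2%), against 4.38% of all RefSeq probes fitted. Of the 130, 73 were called higher and 5 lower, with a median difference of 0.94, against 0.58 for the 547 without it. The other RefSeq probes showed such a gap too, with medians of 0.60 with TTTTAT (n = 838) and -0.10 without it. Its reverse complement, ATAAAA, was in 2.51% of the uridine-rich probes, against 6.14% of RefSeq probes. TTTTAAT, a variant of the element, was in 31 (4.58%, against 1.06% of RefSeq probes), with a median of 0.82. Together the elements occurred in 152 probes (22.5%, against 5.36%), of which 82 were called higher and 6 lower. The motifs overlap with U-runs and with the A share, and these were not separated.

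Runs of T without regard to what follows gave a similar picture. TTTTT was in 385 uridine-rich probes (56.9%, against 12% of RefSeq probes), with a median difference of 0.82, against 0.47 for the 292 without it. Among the other RefSeq probes the medians were 0.46 with TTTTT (n = 2271) and -0.14 without it. A run of 6 or 7 T was the longest in 160 probes (median 0.82, 82 called higher and 5 lower), and a run of 5 T in 225 (median 0.78, 110 higher and 13 lower). No RefSeq probe of the 22103 fitted held 8 T in a row (0 matches of TTTTTTTT), so longer U-runs were not measured here. The rho of the difference with the longest run was 0.163 (n = 677). It was smaller in size than the rho of the longest run with the difference between the CPEB3 IgG replicates, -0.192 (1 minus 2), and that between the control replicates was -0.031. Among the other RefSeq probes the rho was 0.255, against 0.108 and 0.026 between replicates.

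Other elements were rarer. TGTANATA, the site read by Pumilio proteins, was in 25 uridine-rich probes (3.69%, against 1.52%). Of these, 17 were called higher and 1 lower, with a median of 1.53, against 0.61 for the rest. AATAAA, the polyadenylation signal, was in 43 (6.35%, against 13.8%), with a median of 1.13 and a lower median GC share of 28.3%. ATTTA, the core of AU-rich decay elements, was in 92 (13.6%, against 8.23%), with a median of 0.78, against 0.62 without it. The longer decay motif TTATTTATT was in 7 (1.03%, against 0.213%), of which 6 were called higher and 0 lower. Among the other RefSeq probes, the medians with and without TGTANATA were 0.56 and -0.09. For AATAAA they were 0.02 and -0.10, and for ATTTA 0.18 and -0.10. ATTTA overlaps with TTATTTATT, and the AATAAA share is low where T takes most of the probe.

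Simple repeats made up part of the class, a feature looked for after the values were seen. A unit of 3 to 6 bases, not of a single letter, was written at least 3 times in a row in 93 of the 677 probes (13.7%), against 733 of the 21426 others (3.42%). The windows of Ulk3 and Nuak2 show such repeats. Of the 93, 33 were called higher and 3 lower, with a median difference of 0.40, against 0.67 for the 584 without a repeat. Under 50% T the medians were -0.18 (n = 46) and 0.64 (n = 484), and from 50% T on they were 0.78 (n = 47) and 0.81 (n = 100). A repeat can occur in many transcripts, and how far labelled copies of other RNAs paired with these probes was not tested.

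The largest excess was at Epha5, a receptor of ephrins that steers axons. Its probe, at position 7678, had levels of 5.84 and 5.12 with CPEB3 IgG against 1.89 and 1.53 with control IgG. The excess was 13.6-fold (log2 difference 3.77 ± 0.31 SE, limma adjusted p = 0.00533). The groups did not overlap, as the rule for naming the 12 largest differences required. Cdh4, a classical cadherin of cell adhesion, had levels of 3.70 and 3.18 against 0.03 and -0.68, also a 13.6-fold excess (3.77 ± 0.34, limma adjusted p = 0.00553). Efna1, a membrane-bound ligand of ephrin receptors, had 1.85 and 1.32 against -1.69 and -1.99, an excess of 10.7-fold. A ligand and a receptor of the ephrin system were thus both among the 12 largest differences, by which they were picked. The share of ephrin genes among all probes was not computed. The other Epha5 probe, given below, was not called.

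Secreted and membrane proteins gave further large differences. Tnfaip6, a secreted protein that binds hyaluronan, had levels of 1.38 and 1.62 with CPEB3 IgG against -2.21 and -2.15 with control IgG. The excess was 12.8-fold (log2 difference 3.68 ± 0.17 SE, limma adjusted p = 0.00527). Ackr3, an atypical receptor that takes up the chemokine CXCL12, had 0.46 and -0.20 against -2.93 and -3.26, an excess of 9.33-fold. The log2 difference of Ackr3 ran from 2.26 to 3.88 over the settings run. Pkdcc, a secreted kinase, had 4.03 and 4.14 against 0.94 and 0.79, an excess of 9.31-fold. None of these 3 probes overlapped between the groups, which the rule for naming them required.

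Mex3d, itself an RNA-binding protein, was measured by a pair of uridine-rich probes, and both were high. The probe at position 3197 had levels of 4.46 and 4.45 with CPEB3 IgG against 0.92 and 0.78, an excess of 12.2-fold (log2 difference 3.61 ± 0.16 SE, limma adjusted p = 0.00527). The probe at position 2946 had 3.43 and 3.50 against 0.51 and 0.52, an excess of 7.72-fold. Fbxl12, the substrate-binding part of a ubiquitin ligase, had 4.77 and 4.24 against 0.97 and 0.81, an excess of 12.2-fold. The groups did not overlap at any of these 3 probes, which was a condition of naming for Fbxl12 and for Mex3d at position 3197.

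Genes of cilia were among the highest too. Crocc, which encodes rootletin of the ciliary rootlet, had levels of 5.44 and 5.31 against 1.58 and 1.81, an excess of 12.8-fold. Nphp4, a protein of the ciliary transition zone, had 0.01 and 0.04 against -3.65 and -3.38, an excess of 11.6-fold. The log2 difference of Nphp4 ran from 2.34 to 4.19 over the settings run. These genes were not a list of their own, and their share among all probes was not computed.

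For a probe that was not well above background on either array of a group, the fold is given as a bound. Such a bound sets the CPEB3 IgG mean against the higher of the probe's own control level and the lowest level that was well above background on that array. It holds for the main setting only. Such probes passed the filter on signal only through the group in which they were high. Myt1, a zinc-finger transcription factor of the neural lineage, was at least 7.21-fold higher. Its levels were -1.67 and -1.99 with CPEB3 IgG against -4.93 and -5.86 with control IgG. Over the settings run, the log2 difference of Myt1 ran from 1.45 to 4.22. Trim6, a ubiquitin ligase, was at least 1.38-fold higher, with -4.24 and -4.19 against -6.12 and -5.37. Its call was lost with normexp correction, with an intensity trend and when either CPEB3 IgG array was left out. The smallest difference of Trim6 over the settings was 0.30. In the other direction, Clec2g, a C-type lectin, was not well above background on either CPEB3 IgG array. It was at least 1.39-fold lower (levels of -5.64 and -5.13 against -4.39 and -4.05). Its call was lost when either CPEB3 IgG array or control IgG replicate 2 was left out. It was also lost with normexp correction, spike-in scaling, dim probes included or an intensity trend. The difference of Clec2g nearest to no change over the settings was -0.19.

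The probes with the most T did not have the largest differences. Ulk3, named for an autophagy-related kinase, had 45 T of 60 bases (75%) and 0% A. Its levels were 0.87 and 1.19 with CPEB3 IgG against 1.78 and 1.49 with control IgG. The CPEB3 IgG arrays were the lower, but the difference of -0.60 was not called (95% interval -1.17 to -0.04, limma adjusted p = 0.0927). The files place this probe on chromosome 5, and RefSeq places the Ulk3 gene on another chromosome, the only such case among 663 uridine-rich probes that could be compared. Nuak2, a stress-responsive kinase, had 42 T (70.0%) and levels of -1.48 and -1.13 against -2.20 and -0.83, which overlap. Vangl2, a planar cell polarity protein, had 39 T and levels of -0.14 and 0.00 against -0.86 and 0.05, which overlap as well.

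The next probes by T share were called higher. Smc2, a condensin subunit, had 38 T and levels of 0.99 and 0.72 with CPEB3 IgG against -0.17 and -0.06, an excess of 1.96-fold (log2 difference 0.97 ± 0.18 SE, limma adjusted p = 0.0210). The call of Smc2 was lost when any 1 array was left out. Sp3, a GC-box transcription factor, had 37 T and 0.15 and 0.71 against -2.09 and -1.86, an excess of 5.30-fold. Vstm2b had 36 T and 1.25 and 1.63 against -0.27 and -0.13, an excess of 3.12-fold. Of these 6 probes, Sp3 had the most A (23.3%) and the largest difference.

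Among the uridine-rich probes called lower, Rtf2 had the largest deficit. The gene encodes replication termination factor 2, and the probe lies at position 36, near the 5′ end. Its levels were -1.99 and -2.04 with CPEB3 IgG against 0.88 and 0.83 with control IgG, a 7.30-fold deficit (log2 difference -2.87 ± 0.16 SE, limma adjusted p = 0.00527). Its 2 other probes, with a mean T share of 28.3%, were both called lower, with a mean difference of -2.75. Vcp, an ATPase that extracts ubiquitylated proteins, had 3.77 and 3.62 against 5.80 and 5.64, a 4.06-fold deficit. Prkar1a, a regulatory subunit of protein kinase A, had 2.79 and 2.74 against 4.46 and 4.21, a 2.96-fold deficit.

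The remaining probes with large deficits were Pttg1, Uchl3, Foxa2, Cir1 and Ran. Pttg1, which encodes securin, was lower by 2.92-fold, and the deubiquitylase Uchl3 by 2.4-fold. Foxa2, a forkhead factor with levels from -3.96 to -2.61, was lower by 2.39-fold. Cir1, a corepressor of Notch signalling, was lower by 2.32-fold and the nuclear transport GTPase Ran by 2.27-fold. None of these 5 overlapped between the groups, which the rule for naming them required. Leaving out CPEB3 IgG replicate 1 ended the calls of Uchl3, Foxa2, Cir1 and Ran. Leaving out CPEB3 IgG replicate 2 ended those of Uchl3, Cir1 and Ran. Leaving out control IgG replicate 1 ended that of Uchl3, and leaving out control IgG replicate 2 that of Cir1. Uchl3 was also not called with normexp correction, quantile scaling or cyclic loess. With scaling on the spike-in probes, all of these and the calls of Vcp, Prkar1a and Pttg1 were lost, while Rtf2 remained called.

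A second look held the transcript fixed and let the base composition change. There were 233 uridine-rich probes whose transcript (231 transcripts) carried at least 1 other fitted probe with under 45% T. The uridine-rich probe had the higher difference at 166 of them and the lower at 67, with a median gap of 0.51 on the log2 scale. Position differed within these pairs too. Where the uridine-rich probe lay nearer the 3′ end (n = 167), it was the higher at 138, with a median gap of 0.77. Where it lay nearer the 5′ end (n = 66), it was the higher at 28, with a median gap of -0.08. Within 300 nt of each other (n = 43), it was the higher at 32, with a median gap of 0.19. Of 104 uridine-rich probes in such transcripts that were called higher, another probe was also called higher in 46, no other probe was called in 49, and another was called lower in 9.

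The widest gaps within a transcript went both ways. At Epha5 the other probe, at position 4167, had a difference of -1.0, which was not called, against 3.77 at the uridine-rich probe. Tut4, an enzyme that adds uridines to RNA tails, had 2.68 at its uridine-rich probe (position 5994) and -1.55 at the other (position 593), which was called lower. Ankrd12, a nuclear ankyrin-repeat protein, had 1.91 at position 8160 and -1.54 at position 335, which was called lower as well. Txnip, the inhibitor of thioredoxin, had 2.87 at position 2167 and -0.45 at position 1345, which was not called.

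In the other direction, the uridine-rich probe named for Ulk3 had -0.60 at position 2541, and the other Ulk3 probe, at position 2749, had 2.50. Hnrnpdl, an hnRNP protein, had -0.22 at position 1493 and 1.75 at position 2637. Wdr89 had -0.88 at position 2735 and 1.23 at position 1634, but its control arrays differed by more than its groups, with levels of 6.69 and 4.42 against 4.88 and 4.48. The differences of the uridine-rich probes of Ulk3, Hnrnpdl and Wdr89 were not called, and the other probe of each was called higher.

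The 8 genes with a pair of uridine-rich probes gave a view of how far such probes of a gene resemble each other. Both were called higher in Mex3d, Tnfaip6 (2.18 at position 906 and 3.68 at position 1541) and Spock3 (0.98 at position 2864 and 1.54 at position 3148). In Gsx2 the probe at position 1416 was called higher (1.60) and that at position 1233 was not called (-0.16). In Zfand1 the probe at position 1435 was called higher (0.97) and that at position 854 was not called (0.41). Neither probe was called in Bzw1 (0.22 and 0.61), Mef2a (-0.77 and 0.55) and Ttc5 (-0.36 and -0.01, on separate transcripts). In all 7 genes with both probes on 1 transcript, the larger difference was at the probe nearer the 3′ end.

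Grouped by the families that their symbols name, transcription factors and chromatin regulators were the largest group. The counts of each family are to be read against the whole class, in which 45.1% were called higher and 4.43% lower with a median of 0.64. Of the 45 probes of this group, 30 (66.7%) were called higher and 3 lower, with a median difference of 1.12. Neurod1, a neuronal basic helix-loop-helix factor, had levels of 2.15 and 2.42 against -1.09 and -0.79, an excess of 9.30-fold. Nfkb1, a subunit of NF-kappa-B, had -1.46 and -1.17 against -4.31 and -4.46, an excess of 8.38-fold. Its control levels were near the lowest signal well above background. Over the settings run, the log2 difference of Nfkb1 ran from 1.39 to 3.72. Foxa2 was the most negative of the group. RNA-binding proteins and regulators of translation had 26 probes, of which 11 (42.3%) were called higher and 0 lower (median 0.56), near the share of the class, the Mex3d pair highest among them.

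Signalling and protein turnover followed. Of 22 probes of kinases, phosphatases and second-messenger enzymes, 14 were called higher and 2 lower (median 1.16). Prkar2b, a protein kinase A regulatory subunit, had 6.73 and 6.44 against 4.07 and 4.15, an excess of 5.55-fold, opposite to Prkar1a. Pde8b, a phosphodiesterase that breaks down cyclic AMP, had 5.36 and 5.08 against 2.86 and 2.74, an excess of 5.35-fold. Of 25 probes of ubiquitin ligases and proteolysis, 15 were called higher and 1, Uchl3, lower (median 0.98). Siah1b, a RING-type ubiquitin ligase, was higher by 7.02-fold, with 4.07 and 3.59 against 0.91 and 1.13. Sumo2, a ubiquitin-like modifier and the only reported CPEB3 target of those looked up that had a uridine-rich probe, was higher by 3.12-fold (levels of 5.64 and 5.35 against 3.84 and 3.87). Its 4 other probes were called higher as well, with a mean difference of 1.35. Of 7 probes of small GTPase regulators, 4 were called higher and 0 lower (median 0.82), with Arhgef11, a guanine nucleotide exchange factor, at 3.45-fold.

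Membrane and traffic genes had 0 probes called lower. So had the RNA-binding, small GTPase, metabolic, cytoskeleton and Tmem groups. With 4.43% of the class called lower, a count of 0 in groups of 11 to 13 probes each is near that share. Adhesion and axon guidance had 12 probes, of which 7 were called higher and 0 lower (median 0.88). Vesicle and membrane traffic had 13, of which 7 were called higher and 0 lower (median 0.72), with Tbc1d14, a Rab regulator of autophagy, at 5.53-fold and Arf5, a Golgi GTPase, at 3.10-fold. Solute carriers and ion pumps had 11, of which 4 were called higher and 0 lower (median 0.46), with the organic anion carrier Slco4a1 at 6.54-fold and the UDP-galactose carrier Slc35a2 at 5.36-fold. Ion channels and transmitter receptors had 13 probes, of which 2 were called higher and 0 lower (median 0.50). These were Scn3a, a voltage-gated sodium channel, at 2.85-fold and Kcna1, a potassium channel, at 2.06-fold. The call of Scn3a was lost without CPEB3 IgG replicate 1, and that of Kcna1 without either CPEB3 IgG array and without control IgG replicate 1.

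The small groups held few probes, and the shares called higher in the first pair (50% each) were near that of the class. Mitochondrial and metabolic enzymes had 6 probes, of which 3 were called higher and 0 lower (median 0.68), with Acsl4, which activates arachidonic acid, at 4.17-fold and Tomm34, a mitochondrial import factor, at 3.96-fold. Cytoskeleton and motors had 6 probes, of which 3 were called higher and 0 lower (median 0.68), with Epb41 at 3.37-fold. The call of Epb41 was lost without CPEB3 IgG replicate 1. Proteins named Tmem had 7 probes, of which 4 were called higher and 0 lower (median 0.89), with Tmem39b at 8.46-fold and Tmem63b at 2.88-fold, the latter not called without CPEB3 IgG replicate 1. Genes named only by a clone or gene model had 20, of which 4 were called higher and 2 lower (median 0.12), at a median position of 1062, against 2541 for all 677. The 464 probes in no group had a median of 0.56, with 197 called higher and 22 lower. The groups were not tested against each other.

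The tissue was checked with marker genes. Markers of excitatory and inhibitory neurons, astrocytes, oligodendrocytes and microglia passed the background limit on all 4 arrays, and the liver marker Alb passed it on 0. The muscle marker Myh1 passed it on 3 arrays. The blood marker Hba-a1 and the choroid plexus marker Ttr passed it on all 4. The differences of the 22 markers measured ran from -2.34 (Aif1, microglia) to 3.16 (Slc1a3, astrocytes), and their part in the results was not tested. The 75th percentile of the signal was between 353 and 507 units on the 4 arrays, and 0 spots were saturated. The correlation between replicates over the probes kept was 0.986 for CPEB3 IgG and 0.977 for control IgG, against 0.925 to 0.939 across groups. Precision is limited by having 4 arrays.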

How the data were processed

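The deposited values are 1-colour (Cy3) intensities of 4 arrays. Per the file headers, version 10.5.1.1 of Agilent's extraction software subtracted background and removed spatial trends within each array, and no normalisation between arrays was applied to this processed intensity. Of 62976 spots, 3671 control spots and 123 to 223 outlier spots per array were left out, and spots of a probe were averaged. Levels are log2 of the processed intensity minus the 75th percentile over probes of the array. Probes well above background on at least 2 arrays were kept, and 40616 with a value on all arrays were fitted without a block by lmFit and eBayes of limma 3.58.1, run under R 4.3.3. Calls use an adjusted p of 0.05, and intervals of 95% use the moderated degrees of freedom.

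The share of T, A and GC was counted in the deposited probe sequences. Coordinates were copied from the deposited files, whose headers name mm9. A genome of that build was not used, so exons and UTRs were not analysed here. Symbols were updated through RefSeq accessions (GRCm38 table, names only), which matched 669 of the 677 probes and renamed 46. The 21 probes on chromosome 18 enter every count but are not named.

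The members, family patterns, motifs and tests were chosen with earlier results of these data known. Families are patterns of gene symbols, from which misassigned symbols were removed after the symbols were seen. By the rule for names, the text gives the 12 largest and 8 smallest called differences of probes above background on all arrays without overlap, the called probes with only a bound, and the 6 highest T shares. It also gives the leading called probes of each family, the 4 widest gaps within transcripts each way, and reported CPEB3 targets. The genes with several uridine-rich probes are named as a whole set. Some items that this rule gives are not reported here. Alternatives were normexp correction (offset 50), scaling by quantiles, the median, cyclic loess or spike-ins, unscaled values, other filters and thresholds, each array left out, a replicate block and an intensity trend. All arrays were on 1 slide in 1 scan. The fit was tested on simulated arrays.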

Additional observations from a re-analysis of the deposited data

How the results depend on the processing

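The sign of the median difference, of its distance from the other RefSeq probes, of the 3 correlations and of the gap within transcripts was the same in 92 of 92 recomputed values. Their sizes moved beyond the spread between replicates in several. The median difference, 0.64, was 0.47 with normexp correction, 0.69 with quantile scaling and with cyclic loess, 0.93 with median scaling, 1.30 with spike-in scaling and 0.55 with dim probes included. It was 0.52 from 40% T and 0.78 from 50% T. Median and spike-in scaling moved the median of all probes from -0.19 to 0.10 and 0.46, and left the distance from the other RefSeq probes at 0.73. That distance was 0.52 with normexp correction, 0.64 with quantile scaling, 0.65 with cyclic loess, 0.62 without the filter, 0.64 from 40% T, 0.85 from 50% T and 0.60 within bins of position. The gap within transcripts was 0.41 with normexp correction. The rho with the A share was 0.214, 0.257, 0.259, 0.168, 0.261, 0.192 and 0.372 with normexp correction, quantile scaling, cyclic loess, no filter, a filter on 4 arrays, 40% T and 50% T. That with the GC share was -0.244, -0.208, -0.291 and -0.350 with normexp correction, no filter, a filter on 4 arrays and 50% T, and -0.239 within bins of position. That with the position was 0.335 and 0.200 from 40% and 50% T.

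The share called higher was 24.7% at an adjusted p of 0.01. The share called lower was 1.62%, 0.148% and 2.36% with median, spike-in and no scaling, 1.73% without the filter, 6.66% and 0.680% from 40% and 50% T, 0.739% at 0.01 and 2.07% with a 2-fold minimum. With each array left out in turn, the share called higher ran from 22.5% to 35.3% and the share called lower from 0.886% to 5.17%. The median difference ran from 0.58 to 0.72, its distance from the other RefSeq probes from 0.67 to 0.77, and the gap within transcripts from 0.47 to 0.53. The rho ran from 0.217 to 0.251 with the A share, from -0.274 to -0.255 with the GC share and from 0.272 to 0.328 with the position. In these fits the lone array is assumed to vary like the other group. The cause of these changes was not tested.

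With the replicate number as a block (replicate block), 47.4% were called higher and 5.17% lower. The deviations of same-numbered arrays from their group means correlated at 0.356. Same-numbered arrays also share a column of the slide, so the block stands for the column as well, and with 2 pairs neither is shown to pair the samples. Within the columns the median difference was 0.71 and 0.58.

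Of the 53 called probes that the rule for names gives, 34 were called in all settings run. Without control IgG replicate 1 the differences of Vangl2, Nuak2 and Wdr89 turned to -0.12, -0.47 and 0.26, and without control IgG replicate 2 they were 0.80, 0.89 and -2.01. Hnrnpdl turned to 0.066 with median and 0.43 with spike-in scaling, and Ulk3 to 0.053 with spike-in scaling. The medians of the motifs and families kept their sign in 237 of 238 recomputed values, the exception being cytoskeleton and motors from 40% T. A difference at a probe near background on either side is limited by the lowest signal well above background.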
